A study of Mus musculus with 6 samples.

Results

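The 36 genes described here encode the chaperones, folding enzymes, stress sensors and disposal machinery of the endoplasmic reticulum (ER). They were taken by symbol from a deposited count table of 56980 genes, in which 37 rows carried 1 of the 36 symbols. Ddit3 had 2 rows at overlapping positions, and its second row, with at most 3 counts in a library, did not pass the filter on low counts and was left aside. The other 36 rows, 1 per gene, all passed. The cells were sorted from B16F10-mCherry tumours of mice as CD11b+ Ly6Chi Ly6G- and are labelled monocytes of WT genotype. B16F10 is a transplanted mouse melanoma line, and monocytes high in Ly6C are the inflammatory ones recruited from blood into tissue. Tumours had received lipid nanoparticles labelled LNP-GFP (green fluorescent protein, the control, 3 libraries) or LNP-Gsdme (mRNA for gasdermin E, a pore-forming protein of lytic cell death, 3 libraries). The labels used here give no dose, time or age, and do not say whether each library is from its own animal. The p-values therefore reflect the spread among these libraries alone, and that spread may be technical.

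Proteins bound for secretion or for membranes are threaded into the ER through the Sec61 channel, folded there by chaperones of the HSP70 and HSP90 families and by lectin chaperones, and linked by disulfide bonds that oxidoreductases form. When unfolded protein builds up, 3 sensors in the ER membrane respond: IRE1 (Ern1), which splices Xbp1 mRNA, PERK (Eif2ak3), which slows translation and lets ATF4 be made, and ATF6, which is cut to release a transcription factor. XBP1 and ATF6 are known to raise chaperones and the ER-associated degradation (ERAD) machinery, and ATF4 to raise genes of amino acid supply and of the stress response, such as Ddit3, which encodes CHOP. The counts are per gene and hold no measure of Xbp1 splicing, of sensor phosphorylation or of ATF6 cleavage.

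Total counts ran from 20233559 to 22932095 in LNP-GFP and from 15991826 to 18751784 in LNP-Gsdme. Monocyte markers were abundant in every library: 14 markers of Ly6C-high monocytes summed to 9774 to 10532 CPM in LNP-GFP and 8256 to 10004 CPM in LNP-Gsdme, and none was at 0 in any library (CPM is the normalized count of a gene, scaled to the same total of tested counts in each library). Ly6c2, which encodes an antigen of the sort, was at 211 to 267 CPM in LNP-GFP and 1374 to 1856 CPM in LNP-Gsdme. The 14 markers moved both ways: 4 rose (28.6%) and 2 fell (14.3%) by the edgeR test given below, against 6.30% and 5.32% of all genes tested. Their log2 fold changes, LNP-Gsdme over LNP-GFP, ran from -1.95 to 2.66 with a median of -0.26, and 9 were negative. Ly6g, the antigen excluded in the sort, was at most 0.618 CPM in any library. Markers of other cells were present too. The 14 fibroblast markers summed to 10631, 11850 and 11229 CPM in LNP-GFP 1 to 3 and to 3579, 2713 and 6744 CPM in LNP-Gsdme 1 to 3, with none at 0. The 11 melanoma markers summed to 354, 1904 and 1141 CPM in LNP-GFP 1 to 3 and to 134, 184 and 786 CPM in LNP-Gsdme 1 to 3, also with none at 0. Of the plasma cells, which are rich in ER, the defining markers Jchain, Mzb1 and Tnfrsf17 were at or near 0, with Jchain at no more than 1.47 CPM, Mzb1 at no more than 0.321 CPM and Tnfrsf17 at 0 in 5 of 6 libraries. The sum of the 11 plasma cell markers nevertheless ran from 541 to 683 CPM in LNP-GFP and from 362 to 392 CPM in LNP-Gsdme, mostly through Sdc1, which other cells express too.

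Of the 36 genes, 9 fell and 1 rose in LNP-Gsdme, and 26 did not pass (edgeR quasi-likelihood test over all genes, Benjamini-Hochberg adjusted p below 0.05). Over all 16010 genes tested, 5.32% fell and 6.30% rose, against 25.0% and 2.78% of the 36. The falls were in chaperones and their partners (Hspa5, Hyou1, Dnajc3, Manf, Hsp90b1 and Canx), in the oxidoreductase P4hb, in the channel subunit Sec61a1 and in the ERAD scaffold Herpud1. The rise was in the sensor Atf6. The median log2 fold change of the 36 genes was -0.23, while that of all genes tested was -0.01, and 27 of the 36 had a negative value. Every LNP-GFP library lay above every LNP-Gsdme library for 15 of the 36 genes, as it did for 18.2% of all genes tested, and the reverse held for 3 genes, against 19.6%. These are levels in a sorted population, in which fewer cells of a type and less RNA per cell cannot be told apart.

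The calls depended on which libraries entered the test. Without LNP-GFP 3 none of the 36 genes passed by edgeR (12 had an unadjusted p below 0.05) and 0.148% of all genes fell. None passed without LNP-Gsdme 1 either (14 with an unadjusted p below 0.05), where 0.278% of all genes fell. Without LNP-Gsdme 2 only Hyou1 passed (15 with an unadjusted p below 0.05), and 0.412% of all genes fell. These shares of all genes are by adjusted p. The share of all genes with an unadjusted p below 0.05 was not computed, so the unadjusted counts have no background to compare with. All 10 called genes kept their direction in each of these fits, which the lack of overlap between their groups already fixed. By DESeq2, with all libraries, 14 of the 36 genes fell and 2 rose, while 9.40% of all genes tested fell and 9.64% rose.

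**Figure D1:**
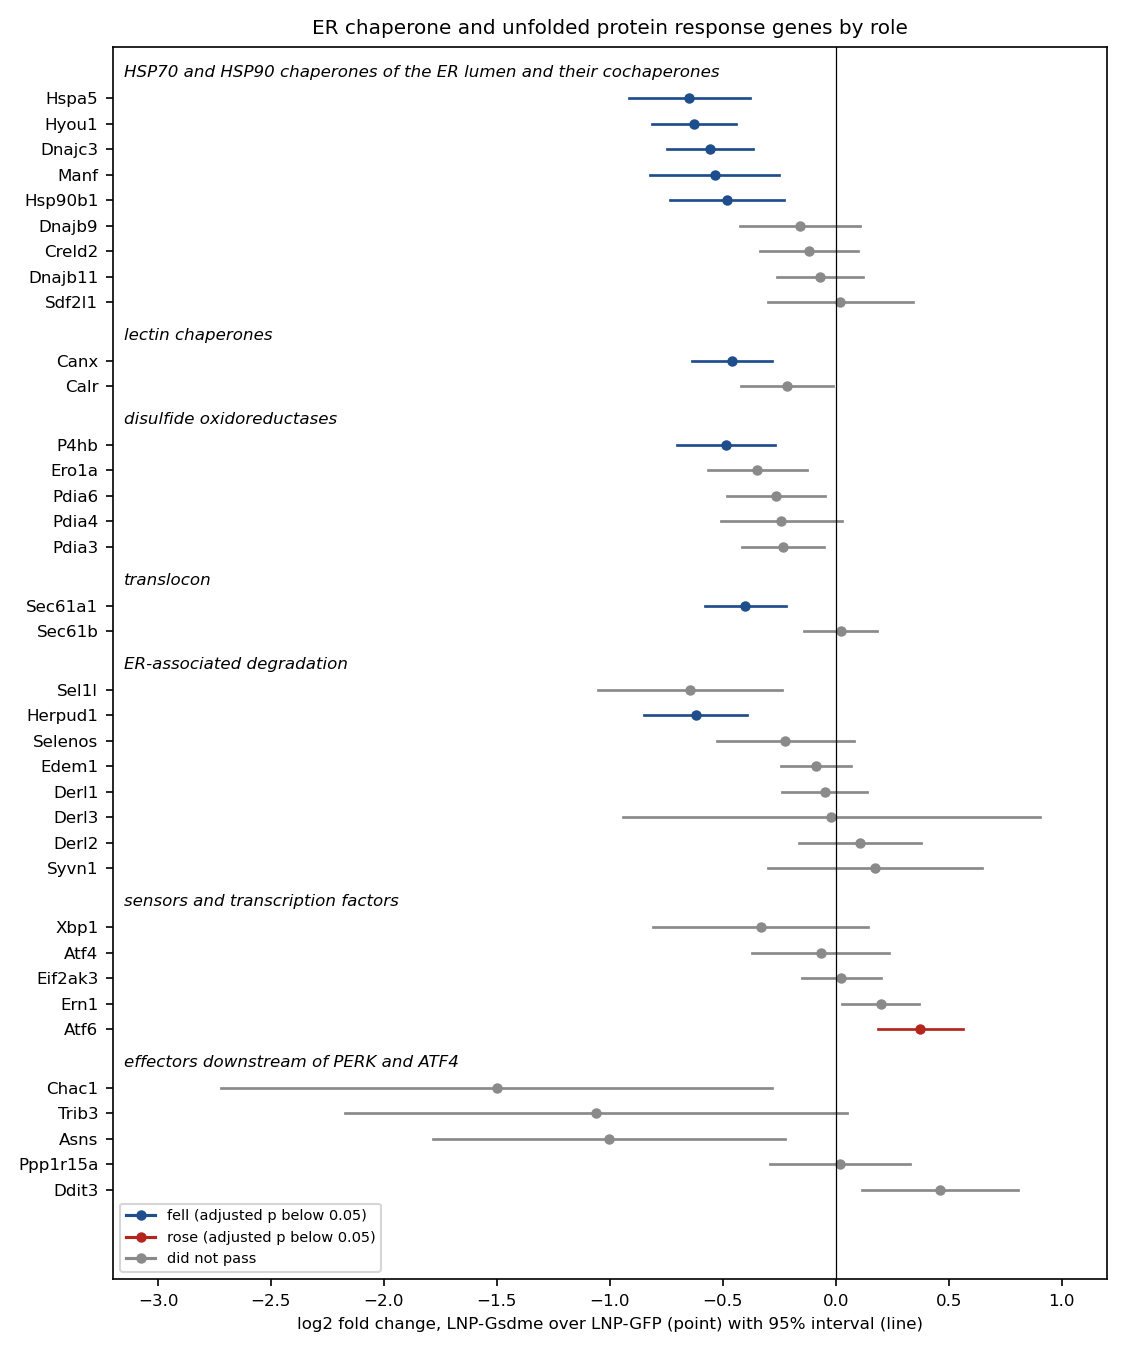
Log2 fold change of each of the 36 genes, LNP-Gsdme over LNP-GFP, on the x axis (points, edgeR) with its 95% interval (lines), arranged by role; blue points fell, the red point rose and grey points did not pass. Of the 9 lumenal HSP70 and HSP90 chaperones and cochaperones 5 fell, whereas of the 5 sensors and factors only Atf6 passed, as a rise.

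Many of these genes are known to be controlled through the ER stress response element (ERSE), which NF-Y and ATF6 or XBP1 bind, and the promoters are shown because 5 of the 9 lumenal HSP70 and HSP90 chaperones and cochaperones fell. Promoter windows (250 bases before and 50 from the start site on, RefSeq, GRCm38.p6, another build than that of the count table) were found for 31 of the 36 genes, and not for Hyou1, Manf, Atf6, Derl1 and Sec61a1. The ERSE was searched as CCAAT and CCACG with 9 bases of any kind between them, ERSE-II as ATTGG and CCACG with 1 base between them, and the ATF4-type element (CARE) as TGATGNAA, each exactly and on both strands. The last 5 letters of the ERSE and of ERSE-II are the same, and no window below counts 1 site for both. Capitals mark the match; where the element lies on the opposite strand, the capitals read as its reverse complement. The 250 bases before the start site of Hspa5 (chr2:34771840-34772089, plus strand) come first, then shorter windows with 20 bases on either side, each written in the direction of the gene.
Hspa5 promoter: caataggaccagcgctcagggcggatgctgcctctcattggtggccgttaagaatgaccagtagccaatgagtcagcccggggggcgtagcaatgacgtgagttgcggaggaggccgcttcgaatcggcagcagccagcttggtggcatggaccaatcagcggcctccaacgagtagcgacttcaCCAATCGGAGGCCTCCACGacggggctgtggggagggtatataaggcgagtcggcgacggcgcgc
Hsp90b1 ERSE window (chr10:86705618-86705676, minus strand): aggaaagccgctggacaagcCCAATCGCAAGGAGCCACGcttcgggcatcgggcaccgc
Hsp90b1 ERSE window (chr10:86705513-86705571, minus strand): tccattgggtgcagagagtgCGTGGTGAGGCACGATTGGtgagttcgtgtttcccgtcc
Dnajc3 ERSE window (chr14:118937807-118937865, plus strand): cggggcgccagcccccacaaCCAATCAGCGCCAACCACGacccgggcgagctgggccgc
Canx ERSE window (chr11:50325780-50325838, minus strand): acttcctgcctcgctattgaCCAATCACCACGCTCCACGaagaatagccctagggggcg
Calr ERSE window (chr8:84847055-84847113, minus strand): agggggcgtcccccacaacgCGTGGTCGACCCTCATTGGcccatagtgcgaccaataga
Pdia6 ERSE window (chr12:17266471-17266529, plus strand): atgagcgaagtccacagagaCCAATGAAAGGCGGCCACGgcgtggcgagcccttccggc
Herpud1 ERSE-II window (chr8:94386357-94386407, plus strand): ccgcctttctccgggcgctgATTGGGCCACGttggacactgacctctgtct
Herpud1 CARE window (chr8:94386297-94386344, plus strand): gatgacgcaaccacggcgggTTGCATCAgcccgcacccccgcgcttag
Chac1 CARE window (chr2:119351029-119351076, plus strand): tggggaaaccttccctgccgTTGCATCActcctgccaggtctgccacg
Asns CARE window (chr6:7693205-7693252, minus strand): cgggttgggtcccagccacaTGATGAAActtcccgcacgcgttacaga
An exact ERSE stood in 9 of the 31 genes (29.0%), against 0.137% of the 27025 genes with a window, and ERSE-II in 2 (6.45%, against 0.0444%). Because many of these genes are known to be controlled through the ERSE, a high share was given by their choice. It says nothing of the treatment. Of the 6 fallen genes with a window, 4 held the ERSE (Hspa5, Hsp90b1, Dnajc3 and Canx), Herpud1 held ERSE-II, and P4hb held neither. Hsp90b1 held the ERSE at 2 places, 1 on each strand, and in Calr it lay on the opposite strand. The ERSE was also in the windows of 5 genes that did not pass: Calr, Pdia6, Creld2, Derl3 and Syvn1. ERSE-II was likewise in the window of Dnajb11, which did not pass. The CARE stood in 4 of the 31 genes (12.9%, against 4.51%): Herpud1, Chac1, Trib3 and Asns, of which Trib3 held it just after its start site. A match is a stretch of letters and not evidence of binding.

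Hspa5, which encodes BiP, the main HSP70 chaperone of the ER lumen and the protein that holds the sensors inactive, showed the deepest fall among the called genes (chromosome 2, 34661982 to 34667559, GRCm39). It measured 1194, 1527 and 1329 CPM across LNP-GFP 1 to 3, against 811, 934 and 838 CPM across LNP-Gsdme 1 to 3. The groups did not overlap, and LNP-GFP 1 was the control nearest to LNP-Gsdme. The log2 fold change was -0.65 with an SE of 0.11 (n = 3 per group; edgeR adjusted p = 0.0216), a fall of 36.2%. Leaving out 1 library at a time, Hspa5 passed without LNP-GFP 1, LNP-GFP 2 or LNP-Gsdme 3, and missed the threshold without LNP-GFP 3 (edgeR adjusted p = 0.107), LNP-Gsdme 1 (0.0951) or LNP-Gsdme 2 (0.0704).

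Hyou1, an HSP70-like chaperone that also exchanges nucleotide on BiP (chromosome 9, 44290787 to 44303666), measured 204, 184 and 195 CPM across LNP-GFP 1 to 3, against 122, 134 and 121 CPM across LNP-Gsdme 1 to 3. Its replicates were close within each group, and it had the smallest p of the 36 genes (log2 fold change -0.63 ± 0.08 SE, n = 3 per group; edgeR adjusted p = 0.00991). Dnajc3, a J-domain cochaperone of BiP that is also known as an inhibitor of PERK (chromosome 14, 119175388 to 119219109), measured 129, 113 and 124 CPM across LNP-GFP 1 to 3, against 78.6, 85.1 and 84.9 CPM across LNP-Gsdme 1 to 3. It fell by 32.0% (log2 fold change -0.56 ± 0.08 SE; adjusted p = 0.0140). Hsp90b1, the HSP90 of the ER, which folds Toll-like receptors and integrins (chromosome 10, 86526073 to 86541373), measured 726, 590 and 663 CPM across LNP-GFP 1 to 3, against 428, 493 and 498 CPM across LNP-Gsdme 1 to 3. Its fall was 28.3% (log2 fold change -0.48 ± 0.11 SE; adjusted p = 0.0363), and, unlike for Hspa5, LNP-GFP 1 was the highest control. Manf, a secreted factor that binds BiP (chromosome 9, 106715511 to 106769178), measured 217, 235 and 206 CPM across LNP-GFP 1 to 3, against 128, 155 and 171 CPM across LNP-Gsdme 1 to 3 (log2 fold change -0.54 ± 0.12 SE; adjusted p = 0.0376). The Manf locus overlaps Rbm15b, which had 6316 counts over the 6 libraries against 22313 for Manf. The sources used here do not give whether reads were assigned by strand.

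The other 4 lumenal genes of this class did not pass, and all 4 had overlapping groups. They were Dnajb9, Dnajb11 and Sdf2l1, cochaperones of BiP, and Creld2, a stress-induced partner of folding enzymes. Their log2 fold changes were -0.16 (95% interval -0.43 to 0.10), -0.07 (-0.26 to 0.12), 0.02 (-0.30 to 0.34) and -0.12 (-0.34 to 0.10), in the order Dnajb9, Dnajb11, Sdf2l1 and Creld2. All 4 intervals leave out a fall as large as that estimated for Hspa5. The interval of Hspa5 itself ran from -0.92 to -0.38 and overlaps that of Dnajb9, and differences between these genes were not tested. Summed, the 9 genes measured 2903, 3063 and 2926 CPM across LNP-GFP 1 to 3, against 1941, 2209 and 2118 CPM across LNP-Gsdme 1 to 3, so that the LNP-Gsdme mean was 70.5% of the LNP-GFP mean. Fibroblast markers moved the same way and by more, to 38.7% of the LNP-GFP mean. Within LNP-Gsdme the fibroblast sum differed 2.49-fold between libraries, from 2713 CPM in LNP-Gsdme 2 to 6744 CPM in LNP-Gsdme 3. The chaperone sum differed 1.14-fold there, and it was highest in LNP-Gsdme 2. Within it, Hsp90b1, Manf and Dnajb11 were highest in LNP-Gsdme 3, and the others in LNP-Gsdme 2. Also highest in LNP-Gsdme 3 were the summed lectin chaperones (1415, 1488 and 1504 CPM across LNP-Gsdme 1 to 3) and oxidoreductases (1825, 1892 and 1955 CPM). The ERAD and Sec61 channel sums were highest in LNP-Gsdme 2, at 891 and 355 CPM. The part of fibroblast RNA in the fall between groups was not tested.

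**Figure D2:**
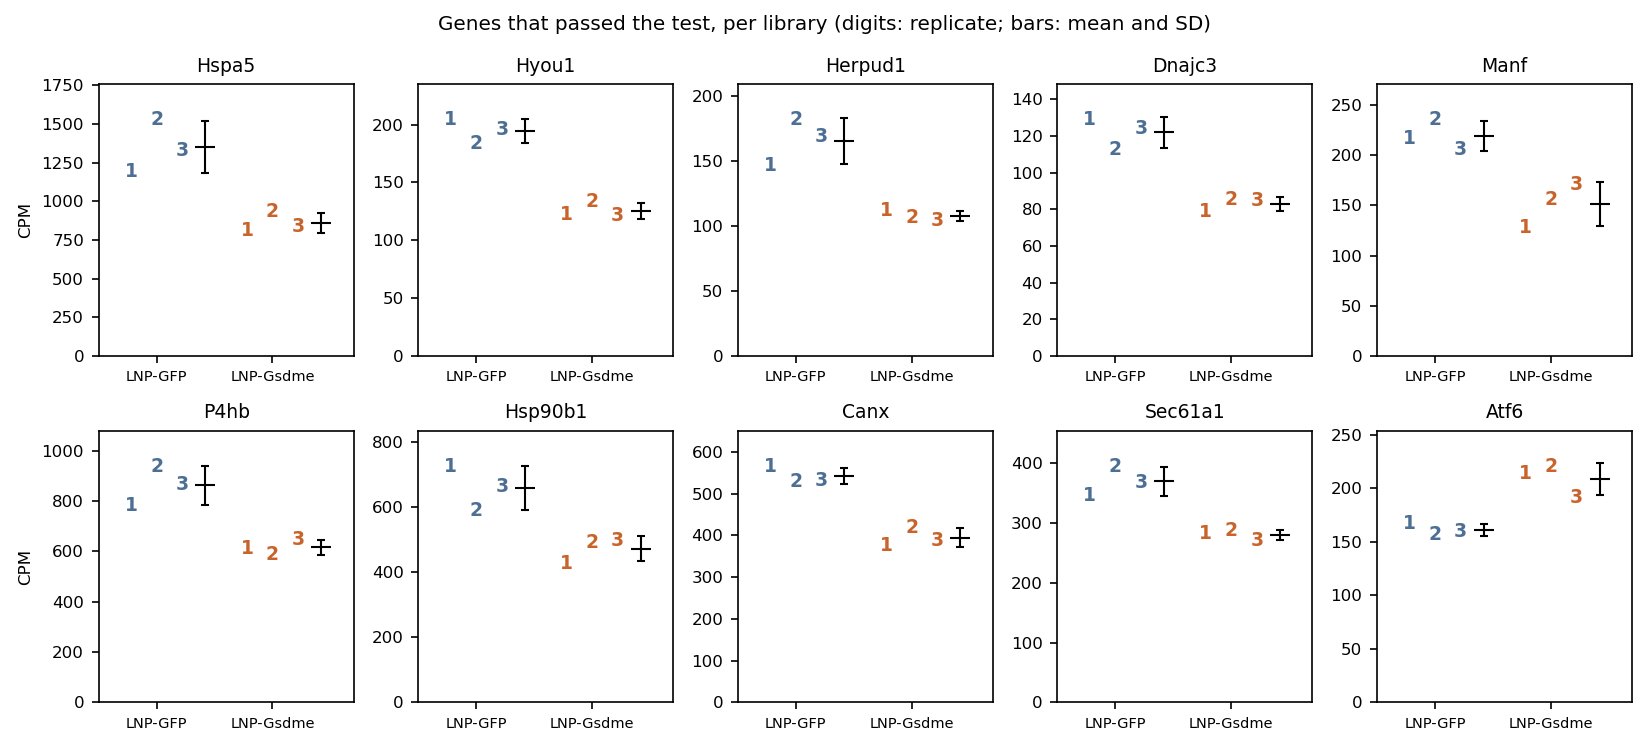
CPM (y axis, from 0) of the 10 genes that passed the test in each library (digits give the replicate, blue LNP-GFP and orange LNP-Gsdme), with the group mean and SD in black. In the 9 falling genes each LNP-GFP library lies above each LNP-Gsdme library, and in Atf6 each lies below.

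Of the lectin chaperones, which hold glycoproteins during folding, Canx fell and Calr did not pass. Canx, the membrane-bound calnexin (chromosome 11, 50184788 to 50216500), measured 565, 529 and 532 CPM across LNP-GFP 1 to 3, against 375, 419 and 388 CPM across LNP-Gsdme 1 to 3 (log2 fold change -0.46 ± 0.07 SE, n = 3 per group; edgeR adjusted p = 0.0200). Calr, its soluble relative calreticulin, which also serves in the loading of MHC class I, measured 1357, 1150 and 1239 CPM across LNP-GFP 1 to 3, against 1040, 1069 and 1117 CPM across LNP-Gsdme 1 to 3. The Calr groups did not overlap, but LNP-GFP 2 and LNP-Gsdme 3 were close, and the log2 fold change of -0.22 (95% interval -0.42 to -0.01) had an adjusted p of 0.140 by edgeR. Both genes were highest in LNP-GFP 1.

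Among the oxidoreductases, P4hb fell, and the other 4 had negative values that did not pass. P4hb, the classical protein disulfide isomerase (chromosome 11, 120451124 to 120464079), measured 781, 937 and 866 CPM across LNP-GFP 1 to 3, against 613, 587 and 646 CPM across LNP-Gsdme 1 to 3. That was a fall of 28.6% (log2 fold change -0.49 ± 0.09 SE, n = 3 per group; edgeR adjusted p = 0.0252). Ero1a, the oxidase that recharges P4hb, measured 222, 246 and 232 CPM across LNP-GFP 1 to 3, against 204, 174 and 172 CPM across LNP-Gsdme 1 to 3 and missed the threshold (log2 fold change -0.35, edgeR adjusted p = 0.0576; 0.0144 by DESeq2). Pdia3, a disulfide isomerase that works with calnexin and calreticulin, Pdia6 and Pdia4 had log2 fold changes of -0.23, -0.27 and -0.24, with edgeR adjusted p of 0.0895, 0.103 and 0.193, and by DESeq2 Pdia3 passed (adjusted p = 0.0318). For Pdia3 and Pdia6 the groups did not overlap, and for Pdia4 LNP-Gsdme 3, at 151 CPM, lay above LNP-GFP 2, at 150 CPM. Summed, the 5 oxidoreductases were at 2348 to 2424 CPM in LNP-GFP and 1825 to 1955 CPM in LNP-Gsdme.

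The subunits of the Sec61 channel gave different values. Sec61a1, the pore itself (chromosome 6, 88480561 to 88495887), measured 347, 395 and 368 CPM across LNP-GFP 1 to 3, against 282, 288 and 272 CPM across LNP-Gsdme 1 to 3 (log2 fold change -0.40 ± 0.08 SE, n = 3 per group; edgeR adjusted p = 0.0261). Sec61b, a small accessory subunit, was at 63.5 to 68.9 CPM in LNP-GFP and 65.3 to 68.1 CPM in LNP-Gsdme, and its log2 fold change of 0.02 had a 95% interval of -0.14 to 0.18, which does not reach the value of Sec61a1. The difference between the 2 subunits was not itself tested.

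Of 8 genes of ER-associated degradation, which returns misfolded protein to the cytosol, Herpud1 fell and the other 7 did not pass. Herpud1, a stress-induced scaffold of the complex (chromosome 8, 95113066 to 95122005), measured 146, 181 and 168 CPM across LNP-GFP 1 to 3, against 112, 106 and 104 CPM across LNP-Gsdme 1 to 3. It fell by 35.0% (log2 fold change -0.62 ± 0.10 SE, n = 3 per group; edgeR adjusted p = 0.0174). Sel1l, the adaptor of the ubiquitin ligase Syvn1, had as low a log2 fold change, at -0.64, but varied more: it measured 136, 194 and 193 CPM across LNP-GFP 1 to 3, against 101, 104 and 129 CPM across LNP-Gsdme 1 to 3. LNP-GFP 1 and LNP-Gsdme 3 were nearly level, and the adjusted p was 0.0572 by edgeR and 0.00539 by DESeq2. Syvn1 itself had a log2 fold change of 0.17 (95% interval -0.30 to 0.65), with 52.5 CPM in LNP-GFP 1 and 76.4 to 92.8 CPM in the 5 other libraries. Selenos, a membrane partner of the derlins, was at -0.22 (95% interval -0.53 to 0.08). Edem1, a lectin that selects misfolded glycoproteins, and the derlins Derl1 and Derl2 had log2 fold changes of -0.09, -0.05 and 0.11 with intervals inside -0.25 to 0.38. Derl2 shares its locus with Mis12, whose counts were 47.1% of those of Derl2, and Syvn1 with Mrpl49 (16.2%). Derl3, a derlin of secretory cells, was at 0.400 to 0.870 CPM and 8 to 19 counts in every library, and the 95% interval of its log2 fold change was wide, from -0.94 to 0.90.

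The sensors and their transcription factors gave 1 rise, in Atf6, and the other 4 genes did not pass. Atf6 (chromosome 1, 170532243 to 170695340), the membrane-bound factor that is cut under ER stress, measured 167, 156 and 160 CPM across LNP-GFP 1 to 3, against 214, 220 and 192 CPM across LNP-Gsdme 1 to 3. It rose by a log2 fold change of 0.37 with an SE of 0.08 (n = 3 per group; edgeR adjusted p = 0.0335), with no overlap between the groups. Ern1, which encodes the sensor IRE1, measured 86.7, 78.7 and 80.6 CPM across LNP-GFP 1 to 3, against 92.8, 97.8 and 91.5 CPM across LNP-Gsdme 1 to 3. The groups did not overlap, but Ern1 did not pass (log2 fold change 0.20, 95% interval 0.03 to 0.37, edgeR adjusted p = 0.118). Eif2ak3, which encodes PERK, measured 39.6, 36.2 and 36.6 CPM across LNP-GFP 1 to 3, against 38.6, 38.0 and 37.8 CPM across LNP-Gsdme 1 to 3, with a log2 fold change of 0.02 and a 95% interval of -0.15 to 0.20. All LNP-Gsdme values of Eif2ak3 lay within the range of the controls.

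Xbp1, whose mRNA IRE1 splices into that of an active factor, measured 108, 117 and 183 CPM across LNP-GFP 1 to 3, against 111, 107 and 106 CPM across LNP-Gsdme 1 to 3. A single library, LNP-GFP 3, stood apart, and the other 5 lay within 106 to 117 CPM. The log2 fold change was -0.33 (95% interval -0.81 to 0.14; edgeR adjusted p = 0.295) and -0.05 without LNP-GFP 3. LNP-GFP 3 lay between the other controls for 30 of the 36 genes and for 61.9% of all genes tested, which makes Xbp1 1 of 6 exceptions. Atf4, the factor translated when PERK slows protein synthesis, measured 366, 471 and 433 CPM across LNP-GFP 1 to 3, against 393, 363 and 456 CPM across LNP-Gsdme 1 to 3. Its groups overlapped, and the log2 fold change was -0.07 (95% interval -0.37 to 0.23; edgeR adjusted p = 0.740).

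None of the 5 effectors downstream of PERK and ATF4 passed by edgeR. For 3 of them the unadjusted p was below 0.05, with no share of all genes computed at that threshold. By DESeq2 Asns, Chac1 and Ddit3 passed. The 5 effectors split in direction. Ddit3, which encodes the factor CHOP, measured 36.3, 54.3 and 43.5 CPM across LNP-GFP 1 to 3, against 61.7, 61.2 and 61.7 CPM across LNP-Gsdme 1 to 3. All LNP-Gsdme libraries lay above all controls and within 1.01-fold of each other, and the log2 fold change was 0.46 (95% interval 0.12 to 0.81; edgeR adjusted p = 0.0839). Without LNP-GFP 2, the highest control, Ddit3 passed (log2 fold change 0.63, edgeR adjusted p = 0.0317). The locus of Ddit3 overlaps Mars1, which had 4366 counts over the 6 libraries against 6165 for Ddit3. Mars1 itself was at 35.3 to 39.1 CPM in LNP-GFP and 33.7 to 37.4 CPM in LNP-Gsdme (log2 fold change -0.06). Ppp1r15a, the phosphatase subunit that ends the PERK signal, was at 216 to 299 CPM in LNP-GFP and 242 to 282 CPM in LNP-Gsdme, with a log2 fold change of 0.02 (95% interval -0.29 to 0.33).

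Chac1, which degrades glutathione, Trib3, a pseudokinase that restrains ATF4 signalling, and Asns, asparagine synthetase, had the lowest log2 fold changes of the 36 genes, without passing by edgeR. The value was -1.50 for Chac1 (edgeR adjusted p = 0.103) and -1.06 for Trib3 (adjusted p = 0.174), and Asns was 50.1% lower (95% interval of its log2 fold change -1.78 to -0.22, adjusted p = 0.0920). The windows of all 3 hold the CARE, as shown above for Chac1 and Asns. Chac1 measured 5.19, 21.7 and 13.4 CPM across LNP-GFP 1 to 3, against 6.29, 4.12 and 3.81 CPM across LNP-Gsdme 1 to 3. Trib3 measured 8.77, 34.5 and 21.3 CPM across LNP-GFP 1 to 3, against 11.4, 11.4 and 8.19 CPM across LNP-Gsdme 1 to 3. For both genes LNP-GFP 1 lay among the LNP-Gsdme values, and LNP-GFP 2 and 3 lay above all others. Asns had the same order among controls, at 15.8, 39.7 and 30.8 CPM in LNP-GFP 1 to 3, against 12.4, 14.2 and 16.3 CPM in LNP-Gsdme 1 to 3. LNP-GFP 2 was 4.17-fold above LNP-GFP 1 in Chac1, 3.94-fold in Trib3 and 2.51-fold in Asns, and these were the 3 largest such ratios of the 36 genes.

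The result for these 3 genes turned on the controls. Without LNP-GFP 1 all 3 passed as falls (edgeR adjusted p = 0.0193 for Chac1, 0.0228 for Trib3 and 0.0147 for Asns). Against LNP-GFP 1 alone, a comparison added after the data had been seen, their log2 fold changes were -0.12, 0.24 and -0.13. The melanoma marker sum had the same order among controls, at 354, 1904 and 1141 CPM in LNP-GFP 1 to 3. In LNP-Gsdme 3 that sum was 786 CPM, above LNP-GFP 1, while Chac1 and Trib3 were lower there than in LNP-GFP 1, and Asns, at 16.3 against 15.8 CPM, was close to it. The part of melanoma RNA in these values was not tested.

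**Figure D3:**
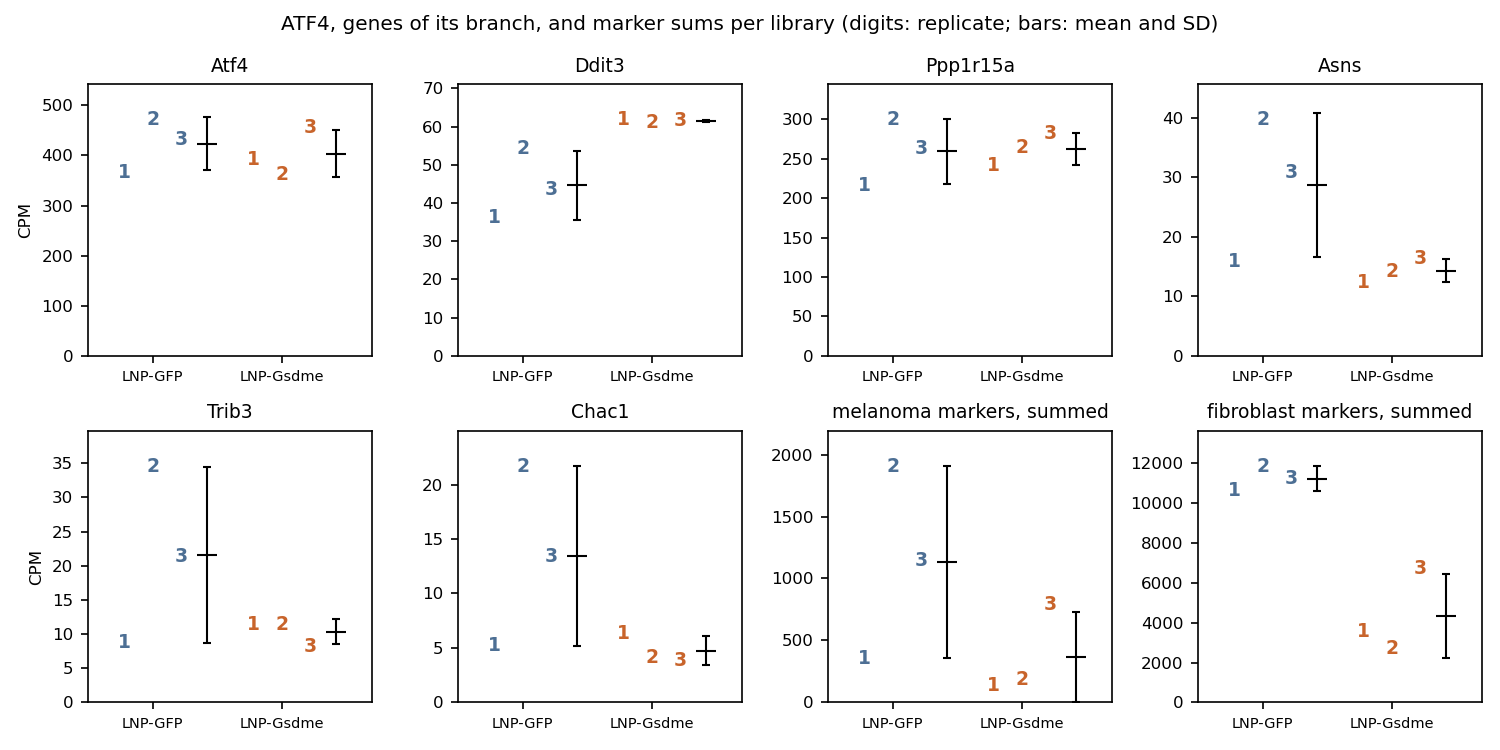
CPM (y axis, from 0) of Atf4 and the 5 genes of its branch, and of the summed melanoma and fibroblast markers, in each library (digits give the replicate, blue LNP-GFP and orange LNP-Gsdme), with the group mean and SD in black. Chac1, Trib3, Asns and the melanoma sum share the control order 1, 3, 2, and the 3 LNP-Gsdme values of Ddit3 lie between 61.2 and 61.7 CPM.

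By the deposited FPKM, the highest of the 36 genes were chaperones and oxidoreductases. FPKM divides a count by a library total and by a fixed length for each gene. The lengths implied for Hspa5, Atf4, Ppp1r15a and Xbp1 exceed the spans of their loci. The order below is therefore that of the deposited values, and may not be that of transcript abundance. Calr led in LNP-GFP with 291 ± 27.4, then P4hb with 226 ± 18.0 and Hspa5 with 192 ± 21.7 (SD, n = 3). Pdia3 with 179 ± 10.1 and Hsp90b1 with 121 ± 13.8 followed. The ranges of the neighbours P4hb and Hspa5 overlapped, as did those of Hspa5 and Pdia3. In LNP-Gsdme the order of FPKM levels was Calr with 255 ± 15.3, P4hb with 164 ± 11.2, Pdia3 with 155 ± 9.27 and Hspa5 with 125 ± 9.73 (SD, n = 3), so Pdia3 stood above Hspa5 there, in each of the 3 libraries. The ranges of P4hb and Pdia3 overlapped in LNP-Gsdme, and in LNP-Gsdme 2 Pdia3, at 163 FPKM, lay above P4hb, at 156 FPKM. Atf4, at 102 ± 11.7 FPKM in LNP-GFP, had the highest FPKM of the factors, against 25.0 ± 7.52 for Xbp1 and 17.1 ± 0.746 for Atf6. The sensors Ern1 and Eif2ak3 were low, at 7.63 ± 0.469 and 4.67 ± 0.281 FPKM.

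Genes that work beside the 36 were followed in 5 further lists, to be read against the 5.32% of all genes tested that fell and the 6.30% that rose. In the list of other translocon, signal peptidase and glycosylation genes, 8 of 30 fell by edgeR (26.7%) and the other 22 did not pass, with a median log2 fold change of -0.19. Stt3a, the catalytic subunit of the oligosaccharyltransferase that attaches glycans as proteins enter the ER, measured 249, 255 and 256 CPM across LNP-GFP 1 to 3, against 171, 176 and 173 CPM across LNP-Gsdme 1 to 3 (log2 fold change -0.55 ± 0.06 SE, n = 3 per group; edgeR adjusted p = 0.00828). Rpn1, another subunit of that enzyme, had a log2 fold change of -0.64 with an SE of 0.08 (adjusted p = 0.0104). In both genes the groups lay far apart relative to their spread. Of 33 other folding genes 3 fell (9.09%) and 2 rose (6.06%), with a median of -0.14. Qsox1, a sulfhydryl oxidase, and Dnajc10, a disulfide reductase of the ER, fell by 0.45 and 0.56 on the log2 scale, while Sdf2, the paralog of Sdf2l1, and Erp29 rose by 0.53 and 0.63.

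Of 27 other ERAD genes 3 fell (11.1%) and 1 rose (3.7%), against 5.32% and 6.30% of all genes tested, with a median of 0.03. The oligosaccharyltransferase subunit Stt3b fell by 0.48 on the log2 scale, and Tmub1 rose by 0.51. Of 26 tested regulators of the response 3 fell and 3 rose (11.5% each), with a median of -0.10. Sec24d, a coat protein of vesicles that leave the ER, and Ufl1, the ligase of the UFM1 modifier, fell by 0.45 and 0.39 on the log2 scale. Pmaip1, a BH3-only death protein also known as Noxa, and Creb3, a membrane-bound factor related to ATF6, rose by 0.85 and 0.37.

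In the list of other ATF4 and integrated stress response genes, 5 of 41 tested fell (12.2%) and 2 rose (4.88%), with a median of -0.23. Of all genes tested 5.32% fell and 6.30% rose. Atf3, a stress-induced factor, measured 313, 274 and 294 CPM across LNP-GFP 1 to 3, against 466, 542 and 496 CPM across LNP-Gsdme 1 to 3 (log2 fold change 0.77 ± 0.09 SE, n = 3 per group; edgeR adjusted p = 0.00882), and Cebpb rose by 0.35. Slc7a11, the cystine transporter, and Shmt2, a mitochondrial enzyme of serine metabolism, fell by 2.32 and 0.49 on the log2 scale. The control order seen in Chac1 and Trib3 recurred here: 14 of the 41 genes were more than 1.5-fold higher in LNP-GFP 2 than in LNP-GFP 1, against 12.3% of all genes tested and 4 of the 36 genes. LNP-GFP 2 was the highest control in 31 of the 41, against 40.1% of all genes tested.

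**Figure D4:**
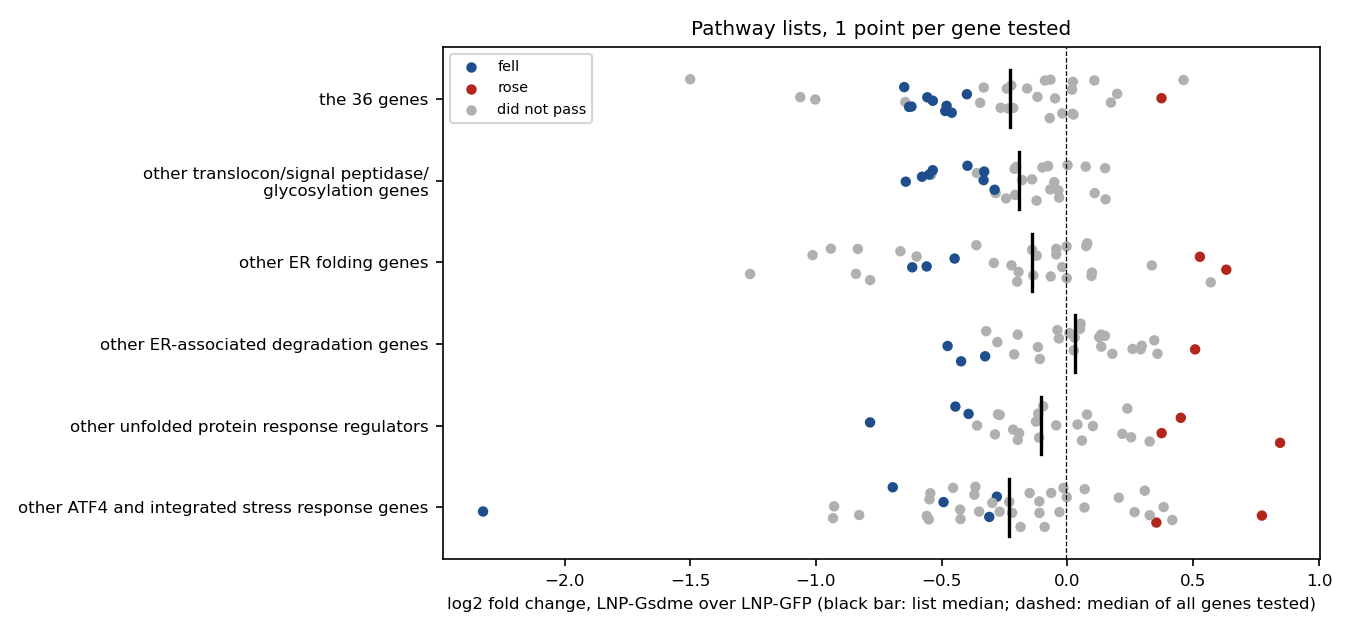
Log2 fold change, LNP-Gsdme over LNP-GFP (x axis), of each tested gene of the 36 genes and of 5 further pathway lists (rows), with list medians as black bars and the median of all genes tested as a dashed line. Blue genes fell, red genes rose and grey genes did not pass; the medians run from -0.23 for the 36 genes and the ATF4 list to 0.03 for the other ERAD genes.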

How the data were processed

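RNA-seq of 6 sorted-cell libraries was used. The authors deposited raw read counts per gene, and FPKM values beside them, in 1 table, per the file headers. Coordinates are on GRCm39, the build named by the submitters' processing notes, and the aligner, counter and strand setting were not given in the sources used here. The deposited counts were tested in edgeR 4.0.16 (R 4.3.3; filterByExpr by group, TMM factors, robust quasi-likelihood test), with Benjamini-Hochberg adjustment over all 16010 genes kept and a threshold of 0.05. CPM use the tested counts and the TMM factor; FPKM served only to compare levels between genes. Each SE is the log2 fold change over the root of F, and intervals are at 95%. A deposited FPKM is a count divided by a fixed gene length and a library total: over 11356 genes the implied lengths differed by at most 0.00195% between libraries. DESeq2 1.42.0, limma 3.58.1, other scalings and filters, a replicate block and leaving out each library were alternatives. The common biological coefficient of variation was 0.193, and normalization factors ran from 0.980 to 1.04.

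The 36 genes and all lists were chosen with earlier results of these data known. Values per library are given for each gene that passed and for Hspa5, the sensors, Xbp1, Atf4 and Ddit3; for other members named with such values, and for Mars1 and the marker genes, the choice was made after their values were seen. From each further pathway list, up to 2 passing genes per direction with the smallest p are named; 1 gene that this rule names is not reported here. Further marker lists were summed. Macrophage markers were at 5247 to 7118 CPM in LNP-GFP and 5379 to 5727 CPM in LNP-Gsdme, and dendritic cell markers at 488 to 547 and 371 to 468 CPM. T cell markers were at 311 to 677 and 572 to 713 CPM, NK cell markers at 74.6 to 259 and 238 to 332 CPM, and neutrophil markers at 193 to 451 and 246 to 460 CPM. Endothelial markers were at 386 to 473 and 293 to 375 CPM, and keratinocyte and B cell markers at no more than 47.3 and 7.98 CPM.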

Additional observations from a re-analysis of the deposited data

How the results depend on the processing

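The 10 calls among the 36 genes stayed 10 with limma-voom, RLE factors, no low-count filter, a stricter filter or fitting without robust weights. They were 8 with library size only (Hsp90b1 and Manf were lost) and 11 with upper-quartile factors. In the order of these settings, 5.58%, 5.34%, 2.26%, 5.74%, 5.39%, 4.58% and 6.59% of all genes tested fell. By DESeq2 16 of the 36 genes and 3048 of all genes passed, against 1859 by edgeR. Leaving out 1 library gave 0 to 12 calls among the 36 genes, 88 to 2841 among all genes and a median of -0.26 to -0.17. The 0 came without LNP-GFP 3 or LNP-Gsdme 1. Against LNP-GFP 1 alone, where the lone control is assumed to vary like LNP-Gsdme, the median of the 36 genes was -0.13. Upper-quartile factors gave a median of -0.27 and moved that of all genes to -0.05. The 10 called genes kept their direction in all 16 alternatives, which the lack of overlap between their groups had largely fixed beforehand. The cause of these shifts was not tested.

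With the replicate number as a block, 0 of the 36 genes passed by edgeR and 155 of all genes did. Of the 36, 15 had an unadjusted p below 0.05, again with no share of all genes computed at that threshold. Same-numbered libraries had correlations of 0.214, -0.237 and 0.031 between their deviations from the group means. Deviations of 3 libraries from their own mean offset one another, so these correlations cannot decide whether libraries were paired. The labels used here give a shared number and no pairing, and none was used in the main fit.

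Signs reversed only in genes near 0 or with spread controls. With upper-quartile factors the log2 fold change of Sdf2l1 was -0.0245, of Ppp1r15a -0.0262, of Eif2ak3 -0.0212 and of Sec61b -0.0241. Derl3 was at 0.0136 with limma-voom and 0.0120 with library size only. Over the fits without 1 library, Derl3 ran from -0.27 to 0.26, Derl1 from -0.0832 to 0.0036, Syvn1 from -0.0081 to 0.346, Sdf2l1 from -0.0793 to 0.164, Ppp1r15a from -0.0854 to 0.141 and Atf4 from -0.161 to 0.0239. Against LNP-GFP 1 alone Derl1 was at 0.0505, Derl2 at -0.0649, Dnajb9 at 0.0254, Sdf2l1 at -0.21, Trib3 at 0.24, Atf4 at 0.15, Eif2ak3 at -0.0493 and Xbp1 at 0.0033. Depth limits mainly Derl3, with 8 to 19 counts per library.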
